A study of Mus musculus with 8 samples.

Results

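The 35 genes described here mark the first lineages of the mouse embryo, and they were chosen by name: every gene-detecting probe on the arrays that carries the name of 1 of these genes was used, 47 probes in all, out of 39429 probes for 30397 gene names. The list holds 10 genes of the endoderm, 9 of the mesoderm, 5 of the trophectoderm and 11 of the neural lineage. The last set, called neural here, also takes in other homeobox or patterning genes. Of the 35, 18 passed the filter on dim probes and were tested, 13 of these gave a signal well above background on all 8 arrays, and 17 were too dim to test. The cells were E14, a mouse embryonic stem cell (ESC) line grown without feeder cells, and RNA was collected 72 h after infection with lentiviruses that carried short hairpin RNAs. Each of the 4 groups had 2 biological replicates, A and B. Control KD (knockdown) cells received a hairpin against GFP, a protein the cells do not make. Tip60 KD and Hdac6 KD cells received a hairpin against the acetyltransferase Tip60 (gene Kat5) or the deacetylase Hdac6, and double KD cells received both. All groups were infected, and only 1 hairpin was used per gene, so an effect of the hairpin itself cannot be told apart from that of its target.

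ESCs resemble the inner cells of the blastocyst and keep most genes of the later lineages silent. The trophectoderm, the outer layer that builds the placenta, is set apart first and is run by factors such as Cdx2, with keratins as its structural proteins. Primitive endoderm follows under Gata6, Gata4 and Sox17, and at gastrulation cells pass through the primitive streak, marked by T and Eomes, to form mesoderm and definitive endoderm, while the remaining epiblast gives rise to neural tissue under Sox1, Sox3 and Pax6.

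Each targeted gene was lower in the cells that received its hairpin. Kat5 changed by -1.35 (log2) in Tip60 KD and -1.31 in double KD, and Hdac6 by -2.49 in Hdac6 KD and -1.87 in double KD, while Hdac6 was also lower in Tip60 KD, by -0.44. All 8 ESC markers were tested, and none was below background on both arrays of any group. Their summed level, without Nanog and Tdgf1 on Tip60 KD array A, where their spots carried an outlier mark, lay between 298 and 330.8 times the 75th percentile signal of an array. The arrays differed in the background that the scanner software had subtracted, although the negative control spots had raw medians of only 33.6 to 37.2 on the 8 arrays. In replicate A the median subtracted was 61.0 intensity units on the control KD array and 37.2 to 39.4 on the knockdown arrays. In replicate B it was 114.4 on the control KD array and 41.4 to 89.1 on the knockdown arrays. After this subtraction, a higher value of a dim gene in the knockdowns cannot be told apart from this difference. Each group sat at the same slide position in both replicates, so position and group cannot be told apart. In bulk RNA, fewer cells that express a gene and less RNA of it per cell cannot be told apart.

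Of the 18 lineage genes tested, 6 were called in Tip60 KD against control KD (limma, adjusted p under 0.1), where 39.7% of all 18116 genes tested were called. Eomes, Krt8, Sox3 and Gbx2 were higher (background for higher calls 19.7%) and Krt18 and Krt19 lower (background 20%). In Hdac6 KD 4 were called, with Krt8 and Gbx2 higher and Krt18 and Krt19 lower, against a background of 28.9% (14% higher and 14.9% lower). In double KD 5 were called, with Krt8, Sox3 and Gbx2 higher and Krt18 and Krt19 lower, against 32.8% (15.9% higher and 16.9% lower). As shares of the 18, these are 33.3%, 22.2% and 27.8%, each below the share over all genes. The median log2 change over the 18 was 0.18 (Tip60 KD), 0.10 (Hdac6 KD) and 0.17 (double KD), beside medians of 0.06, 0.03 and 0.05 over all genes. The 3 comparisons share the control arrays. With the replicate as a block the calls numbered 8, 5 and 6, against backgrounds of 60.8%, 52.9% and 55.4% in the same fit. The authors' series matrix behaved as signal without background subtraction. There the calls numbered 3, 1 and 2 when every gene was kept, against backgrounds of 14.1%, 6.14% and 7.45%.

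**Figure D1:**
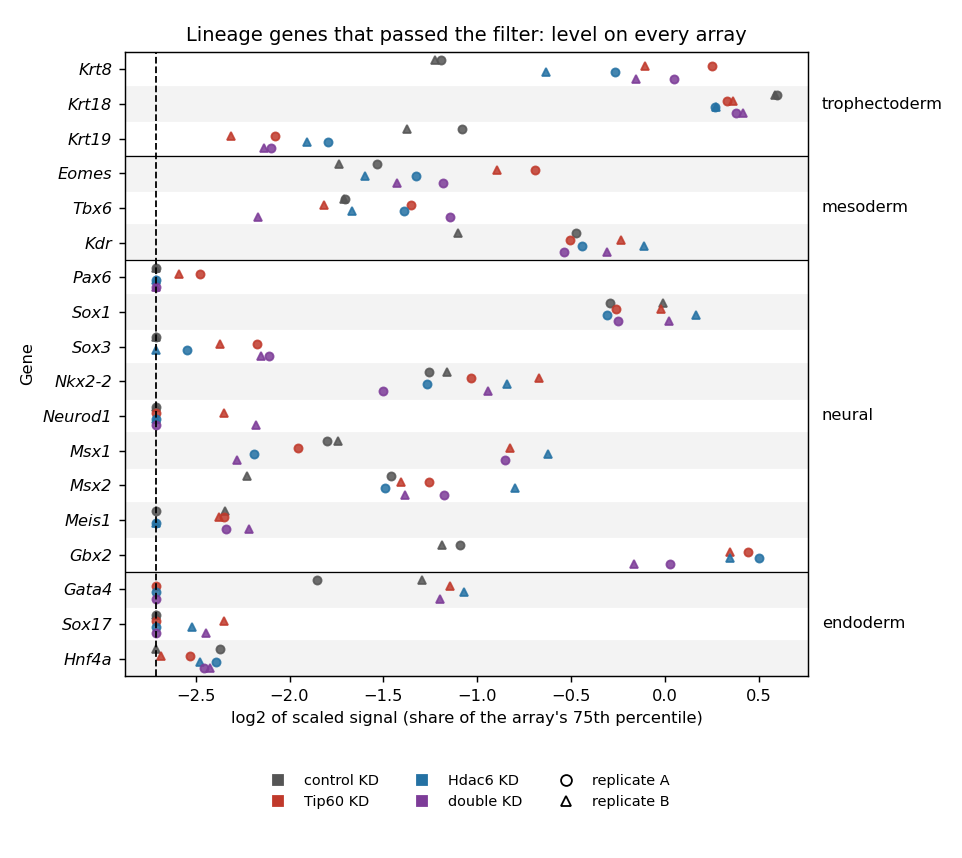
The plot shows the log2 of the scaled signal (x axis) of the 18 lineage genes tested on all 8 arrays, with colour for the group, circles for replicate A and triangles for replicate B. The dashed line is the floor at -2.71, below which values were raised to it. Krt8 and Gbx2 lay higher in every knockdown array than in both control arrays and Krt18 and Krt19 lower, while Gata4 and Msx1 spread widely between replicates.

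Keratins of the trophectoderm changed in all 3 knockdowns, and they did not move together. Krt8 and Krt18 encode the type II and type I keratins that pair in the filaments of simple epithelia, and their genes lie close together on chromosome 15, transcribed away from each other from starts 23874 bp apart. Their promoters are shown because these genes moved in opposite directions. The sequences are from RefSeq (build GRCm38.p6, 250 bases before the start and 50 after it, in the direction of transcription), and 26 of the 35 genes have such an entry. Capitals mark matches to the GC box GGGCGG, the CCAAT box, the TATA box TATAAA and the E-box CACGTG, on either strand.
Krt8, chr15:102004293-102004592, minus strand: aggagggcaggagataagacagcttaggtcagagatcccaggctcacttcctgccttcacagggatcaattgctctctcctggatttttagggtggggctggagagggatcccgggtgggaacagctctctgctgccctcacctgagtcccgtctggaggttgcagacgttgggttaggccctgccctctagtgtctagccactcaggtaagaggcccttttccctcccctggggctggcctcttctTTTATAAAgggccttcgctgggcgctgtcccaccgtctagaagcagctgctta
Krt18, chr15:102027966-102028265, plus strand: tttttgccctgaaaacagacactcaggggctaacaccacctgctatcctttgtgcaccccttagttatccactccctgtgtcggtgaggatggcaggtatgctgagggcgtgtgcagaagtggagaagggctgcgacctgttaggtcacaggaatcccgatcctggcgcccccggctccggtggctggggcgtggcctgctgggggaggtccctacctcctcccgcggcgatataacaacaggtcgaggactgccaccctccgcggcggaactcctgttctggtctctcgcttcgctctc
The Krt8 window held 2 overlapping TATAAA matches, 1 on each strand, and the Krt18 window held no match to any of the 4 motifs. TATAAA occurs in 13.6% of the 32851 promoters of this length, GGGCGG in 35.7%, CCAAT in 37.4% and CACGTG in 7.15%. The Krt8 window had 6 CpG pairs and the Krt18 window 17, against a median of 7 over all promoters. These matches describe letters, and no binding was measured here.

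Krt8 read -1.19 and -1.23 in control KD (log2 of scaled signal, replicates A and B), 0.25 and -0.11 after Tip60 KD, -0.27 and -0.64 after Hdac6 KD, and 0.05 and -0.16 after double KD. Every knockdown array was above both control arrays. Krt8 was thus 2.43-fold higher in Tip60 KD (log2 change 1.28, SE 0.17, limma adjusted p 0.00383), 1.69-fold higher in Hdac6 KD (0.76, SE 0.17, adjusted p 0.0316) and 2.23-fold higher in double KD (1.16, SE 0.17, adjusted p 0.00779). A second Krt8 probe (chromosome 15, 101828827 to 101828886 on mm9, against 101827138 to 101827197 for the first) moved the same way, with log2 changes of 1.99, 0.44 and 0.97. Krt18 read 0.59 and 0.58 on the control KD arrays, 0.33 and 0.36 after Tip60 KD, 0.26 and 0.27 after Hdac6 KD, and 0.38 and 0.42 after double KD. All 6 knockdown arrays lay below both control arrays, but the size was small, 1.18-fold lower in Tip60 KD (-0.24, SE 0.07, limma adjusted p 0.0395), 1.25-fold in Hdac6 KD (-0.32, adjusted p 0.0236) and 1.14-fold in double KD (-0.19, adjusted p 0.0937). Krt19, a type I keratin without a fixed partner of its own, read -1.08 and -1.38 on the control KD arrays, -2.08 and -2.31 after Tip60 KD, -1.79 and -1.91 after Hdac6 KD, and -2.10 and -2.14 after double KD. It was 1.95-fold lower in Tip60 KD (-0.96, SE 0.13, adjusted p 0.00396), 1.54-fold in Hdac6 KD (-0.62, adjusted p 0.0256) and 1.85-fold in double KD (-0.89, adjusted p 0.00761). Again no knockdown array overlapped the controls.

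Of these 9 keratin calls, those of Krt8 in Tip60 KD and double KD and of Krt19 in Tip60 KD held in all 13 alternative settings and whichever array was left out. The decrease of Krt18 in double KD was the weakest: its call was lost whichever of the 8 arrays was left out (log2 change -0.22 to -0.17 over all alternatives). Leaving out single arrays also ended the calls of Krt18 in Tip60 KD (without control KD array A or B, or Tip60 KD array A) and, in Hdac6 KD, those of Krt8 (without control KD array A or B, or Hdac6 KD array A), Krt18 (without Hdac6 KD array A or B) and Krt19 (without control KD array A or Hdac6 KD array B). The series matrix of every gene ended each keratin call other than the 3 that held. Krt19 in Hdac6 KD was also lost with the filtered series matrix and quantile normalisation (limma adjusted p 0.174 and 0.136). Krt18 in double KD was lost with both of these and with normexp background correction. It was also lost with the same background on every array, missing values in place of the floor and only the arrays compared. The trophectoderm regulators Cdx2, which starts the lineage, and Elf5, which maintains trophoblast stem cells, were not tested. Cdx2 was well above background on 3 arrays and Elf5 on 4, and both lay at the floor on all 8, with raw signals of 47.8 to 114.5 and 56.2 to 126.3 intensity units.

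**Figure D2:**
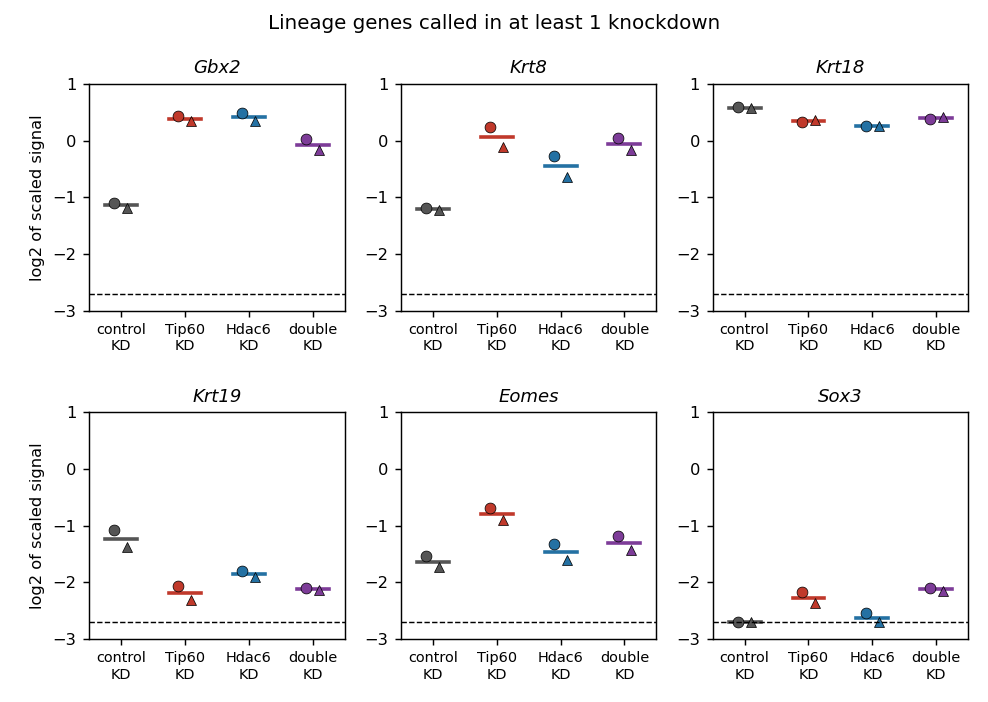
The panels show the log2 of the scaled signal (y axis) of the 6 lineage genes called in at least 1 knockdown, by group (x axis), with circles for replicate A, triangles for replicate B, a bar at the mean of the 2 and a dashed line at the floor of -2.71. Krt8 rises from about -1.2 in control KD while Krt18 and Krt19 fall, and both Sox3 control values lie at the floor.

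Among mesoderm genes, Eomes was the 1 member called, in Tip60 KD alone of the 3 knockdowns. Eomes encodes a T-box factor of the primitive streak that also acts in trophoblast. It read -1.53 and -1.74 on the control KD arrays, -0.69 and -0.89 after Tip60 KD, -1.33 and -1.60 after Hdac6 KD, and -1.18 and -1.43 after double KD. Both Tip60 KD arrays stood above the other 6, and the Hdac6 KD arrays overlapped the controls. Eomes was 1.79-fold higher in Tip60 KD than in control KD (log2 change 0.84, SE 0.15, limma adjusted p 0.00942). The change was 0.17 in Hdac6 KD (95% interval -0.20 to 0.55, limma adjusted p 0.505) and 0.33 in double KD (-0.04 to 0.70, adjusted p 0.178), and with the replicate block both of these were called (adjusted p 0.0448 and 0.00511). The call in Tip60 KD was lost with the series matrix values, and a second probe of Eomes changed by 0.21 there (limma adjusted p 0.423 in a fit over probes).

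Kdr, the VEGF receptor of early blood and vessel progenitors, was well above background on all arrays. It read -0.48 and -1.10 on the control KD arrays, -0.51 and -0.24 after Tip60 KD, -0.44 and -0.12 after Hdac6 KD, and -0.54 and -0.31 after double KD. The Tip60 KD and double KD arrays overlapped the controls and the Hdac6 KD arrays lay above both, but its log2 changes of 0.42, 0.51 and 0.37 (SE 0.24 each) were not called. Tbx6, a T-box factor of paraxial mesoderm, read -1.71 on both control KD arrays, -1.36 and -1.82 after Tip60 KD, -1.39 and -1.67 after Hdac6 KD, and -1.14 and -2.17 after double KD. In each knockdown the replicates of Tbx6 differed by more than the group means did, and no change was called.

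Neural genes were the lineage with the most members tested, 9 of 11. Gbx2, a homeobox factor of the hindbrain boundary that ESCs also express, gave the largest change of the 18 tested in both single knockdowns, and the largest after Krt8 in double KD. Its promoter is shown because its calls held under every alternative tried, with capitals as above.
Gbx2, chr1:89931127-89931426, minus strand: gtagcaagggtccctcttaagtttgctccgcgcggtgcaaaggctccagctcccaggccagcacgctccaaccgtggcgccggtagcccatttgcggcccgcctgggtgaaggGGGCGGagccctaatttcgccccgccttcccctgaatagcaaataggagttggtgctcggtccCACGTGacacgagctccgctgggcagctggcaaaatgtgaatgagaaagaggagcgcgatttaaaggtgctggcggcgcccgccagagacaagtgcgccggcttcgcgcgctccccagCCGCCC
This window held 27 CpG pairs, 64.7% G and C against a median of 52.7%, 1 E-box match and 2 GC box matches.

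Gbx2 read -1.09 and -1.19 on the control KD arrays, 0.44 and 0.34 after Tip60 KD, 0.50 and 0.35 after Hdac6 KD, and 0.02 and -0.17 after double KD. All 6 knockdown arrays were far above both controls, and the double KD arrays lay below those of both single knockdowns. The increase was 2.89-fold in Tip60 KD (log2 change 1.53, SE 0.11, limma adjusted p 0.000768), 2.95-fold in Hdac6 KD (1.56, SE 0.11, adjusted p 0.00182) and 2.09-fold in double KD (1.07, SE 0.11, adjusted p 0.00277). These 3 calls held in all 13 alternative settings and whichever array was left out, with log2 changes of 1.43 to 1.58, 1.44 to 1.64 and 0.97 to 1.16. Sox3, a SoxB1 factor of neural progenitors, gave values close to the floor. It lay at the floor of -2.71 on both control KD arrays, at -2.17 and -2.37 after Tip60 KD, -2.55 and -2.71 after Hdac6 KD, and -2.11 and -2.15 after double KD. In control KD only 1 of the 2 arrays was well above background, and the raw signals there were 188.6 and 168 intensity units, against 371.3 and 383 after Tip60 KD, 290.9 and 243.5 after Hdac6 KD, and 352.8 and 295.8 after double KD. All Tip60 KD and double KD arrays were above all control and Hdac6 KD arrays on both scales. Sox3 changed by 0.44 in Tip60 KD (SE 0.10, limma adjusted p 0.0216) and 0.58 in double KD (SE 0.10, adjusted p 0.0117). The size depends on the floor: over the alternatives it ran from 0.34 to 1.67 and from 0.48 to 1.82, and the calls were lost with quantile normalisation and in the series matrix of every gene. In Hdac6 KD, where Sox3 changed by 0.08 and was not called, it was called with normexp (0.58, limma adjusted p 0.0166) and with a low floor (1.22, adjusted p 0.0352).

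Other neural members were present but not called. Sox1, the earliest marker of neural ectoderm, was well above background on all arrays and read -0.30 and -0.01 on the control KD arrays, -0.26 and -0.02 after Tip60 KD, -0.31 and 0.16 after Hdac6 KD, and -0.25 and 0.02 after double KD. It followed the replicate letter rather than the group, with changes of 0.01, 0.08 and 0.04 (SE 0.20 each). Nkx2-2, a factor of ventral neural tube, read -1.26 and -1.16 on the control KD arrays, -1.03 and -0.67 after Tip60 KD, -1.27 and -0.84 after Hdac6 KD, and -1.50 and -0.94 after double KD. Its change in Tip60 KD (0.36, SE 0.24) was called only with the replicate block (limma adjusted p 0.0429). Msx2, a homeobox factor of dorsal neural tube and neural crest, read -1.46 and -2.22 on the control KD arrays, -1.26 and -1.41 after Tip60 KD, -1.49 and -0.80 after Hdac6 KD, and -1.18 and -1.39 after double KD. The groups of Msx2 overlapped in Hdac6 KD alone, yet its changes of 0.51, 0.69 and 0.56 (SE 0.32 each) were not called. Its relative Msx1 read -1.80 and -1.74 on the control KD arrays, -1.96 and -0.83 after Tip60 KD, -2.19 and -0.62 after Hdac6 KD, and -0.85 and -2.28 after double KD. Msx1 thus differed by over 1 log2 unit between the replicates of each knockdown, in opposite directions in double KD and the single knockdowns. Meis1, a homeobox cofactor of Hox proteins, read -2.71 and -2.34 on the control KD arrays, -2.35 and -2.37 after Tip60 KD, -2.71 on both Hdac6 KD arrays, and -2.34 and -2.22 after double KD. It lay near the floor and was not called. Pax6, the eye and forebrain regulator, and Neurod1, a neuronal differentiation factor, were each well above background on 7 arrays and above the floor on 2, with a highest log2 value of -2.48 and -2.18. The Pax6 values above the floor were both from Tip60 KD, so Pax6 passed the filter only through that group. Its change there was 0.18 (limma adjusted p 0.122). The change was called with the replicate block (adjusted p 0.045), with no filter (adjusted p 0.0471), with the same background on every array (0.27, adjusted p 0.0393) and with a low floor (1.15, adjusted p 0.0106). These calls are no separate support for a rise, because Pax6 entered the main fit through its Tip60 KD values. Hoxb1 of the hindbrain and Isl1 of motor neurons stayed at the floor on every array and were not tested.

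Endoderm genes gave no call in any knockdown. Gata4, the factor of primitive endoderm and heart, was the 1 member of 10 well above background on all 8 arrays. It read -1.85 and -1.29 on the control KD arrays, -2.71 and -1.14 after Tip60 KD, -2.71 and -1.07 after Hdac6 KD, and -2.71 and -1.20 after double KD. All 3 knockdown arrays of replicate A lay at the floor and all 3 of replicate B above both controls, so that the changes of -0.35, -0.32 and -0.38 (SE 0.82 each) had 95% intervals from about -2.4 to 1.7. The raw signal was 478.4 intensity units on control KD array A and 193.9 to 219.4 on the knockdown arrays of replicate A. It was 573.8 on control KD array B and 533.9 to 695.1 on the knockdown arrays of replicate B, where the double KD array lay below its control. Hnf4a, a factor of visceral endoderm and liver, ranged from the floor to -2.37 on the 8 arrays, and Sox17, a factor of primitive and definitive endoderm, from the floor to -2.35. The largest of their 6 changes was 0.18, and none was called, although with the same background on every array Hnf4a was lower in Tip60 KD (-0.29, limma adjusted p 0.0489).

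**Figure D3:**
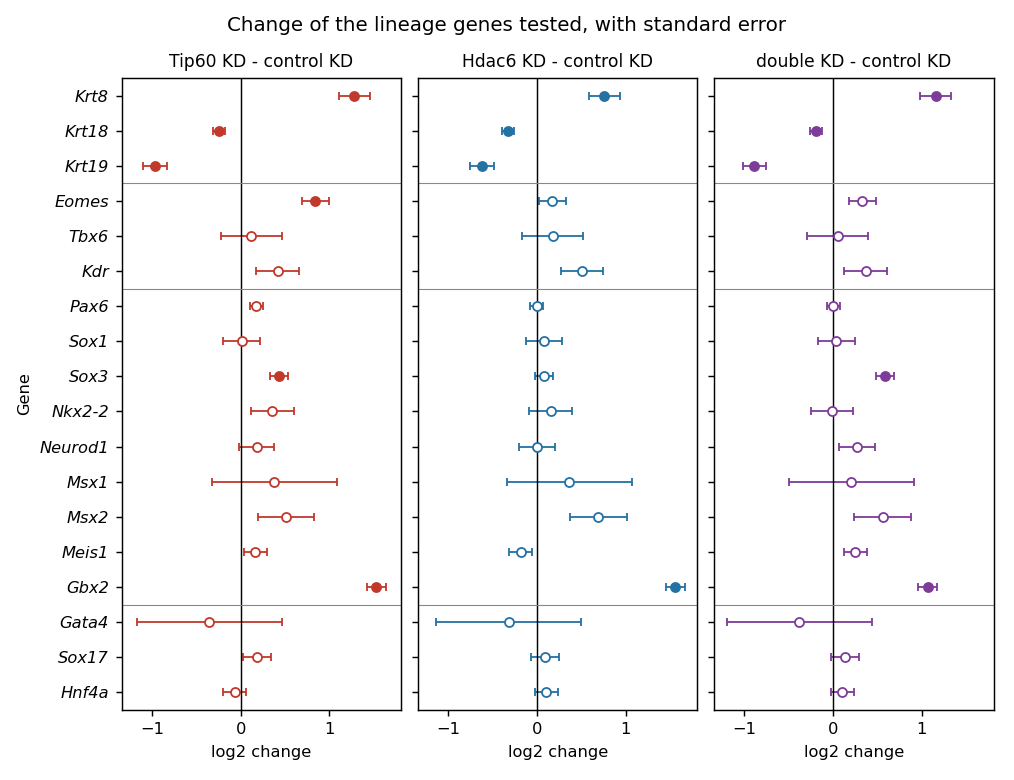
The panels show the log2 change against control KD (x axis) of the 18 lineage genes tested, with 1 panel per knockdown. Points are the limma estimates and bars the standard error, filled where the adjusted p was under 0.1. Gbx2 and Krt8 stand to the right and Krt19 and Krt18 to the left of 0 in all 3 panels, and the bars are widest for Gata4 and Msx1 (SE 0.82 and 0.71).

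The 17 genes not tested include the regulators that start several of these lineages. Gata6, Sox7, Foxa2, Afp, Ttr, Dab2 and Pdgfra belong to the endoderm, T, Mixl1, Gsc, Evx1, Mesp1 and Hand1 to the mesoderm, Cdx2 and Elf5 to the trophectoderm, and Hoxb1 and Isl1 to the neural lineage. Of these, 14 lay at the floor on all 8 arrays. Ttr, a transport protein of visceral endoderm and liver, was well above background on 0 arrays. Foxa2, a factor of definitive endoderm, was so on 0 arrays by 1 probe and on 4 by its other probe, Dab2 on 4 and 6, and Hand1 on 5 and 6. The others, with 1 probe each, were so on 3 to 5. On the raw scale, at the probe plotted for each gene, 6 of the 17 (Gata6, Sox7, Dab2, Mixl1, Hand1 and Isl1) exceeded the 95th percentile of the negative control spots on all 8 arrays, as did the other probe of Foxa2, and 1, Ttr, on none. The floor that left these genes untested was set by control KD array B (0.153 of the 75th percentile signal). The next highest value was 0.0855, on Tip60 KD array B. A change in these genes was thus not tested in the main fit, which does not show that it was absent. In the series matrix, where all 35 genes could be fitted, none of the 17 was called in any comparison. For Foxa2 and Dab2 that fit used the probe well above background on fewer arrays (0 and 4), and the other probe was not fitted.

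A few of the 17 are given with raw values, chosen after these had been seen. Hand1, a factor of lateral mesoderm and trophoblast giant cells, read 1193 intensity units on control KD array B and 115.8 to 167.7 on the other 7 arrays, so its high control mean rests on 1 array. Evx1, a homeobox factor of the posterior streak, read 45.5 and 87.5 on the control KD arrays, 162.5 and 126.6 after Tip60 KD, 54.2 and 51.5 after Hdac6 KD, and 119.5 and 99.8 after double KD. Gsc, a homeobox factor of the organizer, read 137.4 and 102.2 on the control KD arrays, 216.5 and 184.5 after Tip60 KD, 97.9 and 89.0 after Hdac6 KD, and 188.1 and 251.3 after double KD. The 4 arrays with the Tip60 hairpin were above the 4 without it for both genes. In the series matrix Evx1 changed by 1.16 in Tip60 KD and 1.02 in double KD (limma adjusted p 0.152 and 0.258), and Gsc by 0.64 and 0.98 (adjusted p 0.380 and 0.237). T, the founding T-box gene of the primitive streak, read 118.9 and 124.6 on the control KD arrays, 132.7 and 119.6 after Tip60 KD, 68 and 71 after Hdac6 KD, and 111.5 and 99.7 after double KD. Both Hdac6 KD arrays of T were the lowest, a series matrix change of -0.72 (limma adjusted p 0.248).

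**Figure D4:**
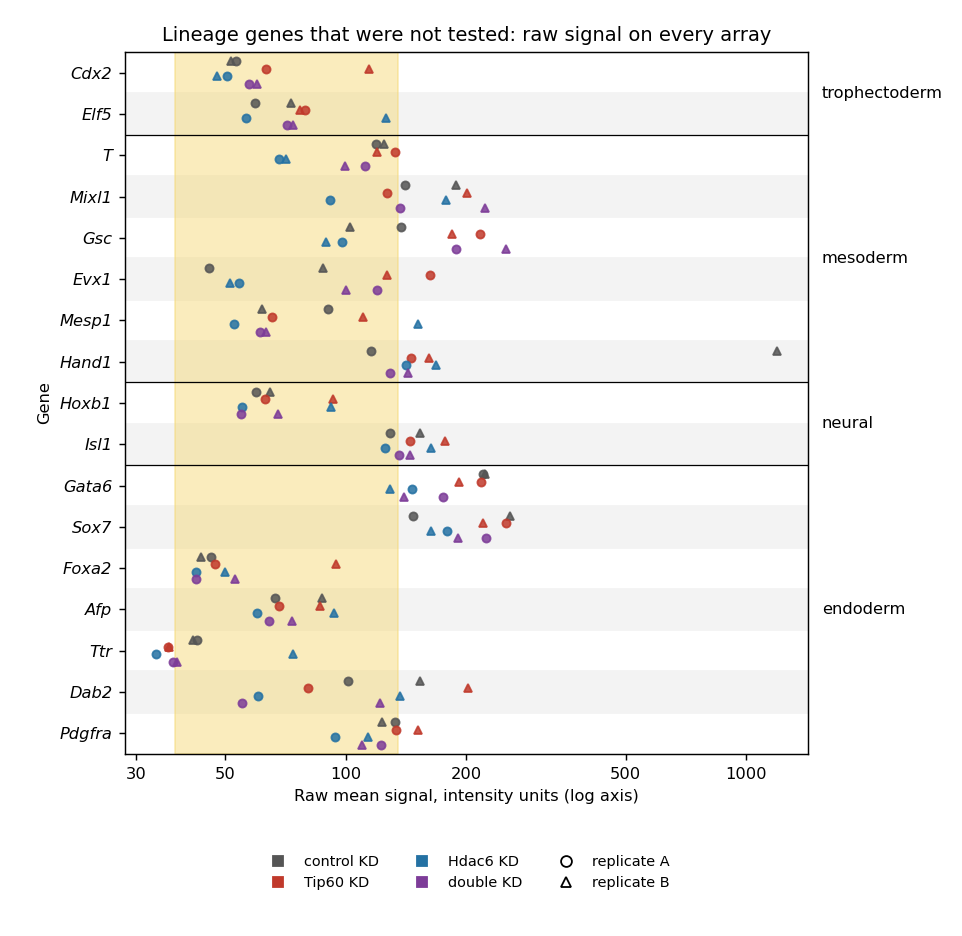
The plot shows the raw mean signal in intensity units (x axis, log scale) of the 17 lineage genes that were not tested, on all 8 arrays, with colour for the group, circles for replicate A and triangles for replicate B. The shaded band spans the 95th percentiles of the negative control spots over the 8 arrays (37.4 to 134.9 units). Most points lie in or just above the band, and Hand1 on control KD array B stands apart at 1193 units.

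Tip60 KD was compared directly with Hdac6 KD, to see which lineage genes responded differently to the loss of either protein. Eomes was higher in Tip60 KD by 0.67 (SE 0.15, limma adjusted p 0.0352) and Sox3 by 0.36 (SE 0.10, adjusted p 0.0673), 2 of the 18 against a background of 23.5%. Gbx2 differed by -0.03 (95% interval -0.29 to 0.23). Krt8 differed by 0.52 (0.09 to 0.95, limma adjusted p 0.105) and Krt19 by -0.34 (-0.67 to -0.02, adjusted p 0.152), neither of them called. Both were called with the replicate block (limma adjusted p 0.011 and 0.0218), as were Pax6 and Meis1, where 41.5% of all genes were called. Pax6 passed the filter only through Tip60 KD, so its call is no separate support. Krt8 was also called here with normexp (0.51, limma adjusted p 0.0922), the same background on every array (0.54, adjusted p 0.0836), missing values in place of the floor (adjusted p 0.0991), only genes above background on all 8 arrays (adjusted p 0.0766) and the mean of its probes (1.03, adjusted p 0.00515). Its second probe was higher in Tip60 KD by 1.55 (limma adjusted p 0.00134 in a fit over probes). The Eomes call was lost without Tip60 KD array A or Hdac6 KD array B and under 6 of 13 settings. It rests on 1 probe, as the second Eomes probe differed by -0.05 (limma adjusted p 0.968 in a fit over probes). The Sox3 call held in only 1 of 8 fits with an array left out. It was also lost with quantile normalisation, a low floor (limma adjusted p 0.373) and missing values in place of the floor (adjusted p 0.293). No filter on dim probes, only the arrays compared and the series matrix, filtered or of every gene, ended it too.

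Double KD was compared with Tip60 KD, to ask whether loss of Hdac6 adds to loss of Tip60. None of the 18 was called by limma, against a background of 3.71%, and 2 had an unadjusted p under 0.05. These were Eomes, at -0.51 (95% interval -0.88 to -0.14, limma adjusted p 0.174), and Gbx2, at -0.46 (-0.72 to -0.20, adjusted p 0.114), as double KD less Tip60 KD. With the replicate block 4 were called, Eomes and Gbx2 (adjusted p 0.00977 and 0.0119), Pax6 and Nkx2-2, against a background of 26.2% in that fit. The call of Pax6 is no separate support, as it passed the filter only through Tip60 KD. The intervals of Krt8 (-0.55 to 0.31), Krt18 (-0.11 to 0.22), Krt19 (-0.25 to 0.40) and Sox3 (-0.10 to 0.39) included 0. The second Krt8 probe differed by -1.01, and was called in a fit over probes (limma adjusted p 0.0362), as was the mean of both probes (-0.57, adjusted p 0.0867). The second Eomes probe differed by -0.04 and was not called.

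Whether the knockdowns added up was asked with an interaction term, the double KD change less both single changes together. It was called for 5 of the 18 genes, Gbx2, Krt8, Eomes, Krt18 and Krt19, against a background of 22%. Gbx2, which was higher by 1.53 and 1.56 in the single knockdowns, was higher by 1.07 and not by their sum in double KD, a term of -2.02 (SE 0.15, limma adjusted p 0.00744).

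Further genes of the same lineages, 55 in all, were measured too, and 38 of them were tested. In Tip60 KD 20 were called, 14 higher and 6 lower, in Hdac6 KD 12, 6 each way, and in double KD 18, 13 higher and 5 lower. As shares these are 52.6%, 31.6% and 47.4%, beside 39.7%, 28.9% and 32.8% over all genes tested, and the medians of 0.28, 0.11 and 0.31 stand beside 0.06, 0.03 and 0.05. These further genes were chosen with earlier results of these data known, so a share above that of all genes is no separate result. For the mesoderm, 4 of 9 tested were higher in Tip60 KD and none lower, led by Snai1, a repressor of epithelial genes (log2 changes of 1.02 for Tip60 KD, 0.01 for Hdac6 KD and 0.85 for double KD, the order kept below), Nodal, the ligand that patterns the streak (1.42, 0.47 and 1.08), and Gata1, a blood factor (0.75, -0.21 and 0.67). Endoderm genes had 6 of 9 called in Tip60 KD, 3 each way. Among them the basement membrane collagens Col4a1 (1.62, 0.43 and 1.45) and Col4a2 (1.43, 0.20 and 1.29) were higher and Amn, an endocytic receptor subunit of visceral endoderm, lower (-1.09, -1.72 and -1.19). Trophectoderm genes had 7 of 9 called in Tip60 KD, 4 higher and 3 lower, with Tead4, which acts upstream of Cdx2, higher (1.32, 0.94 and 1.12) and Tfap2c (-1.38, -0.35 and -1.08) and the keratin Krt7 (-0.52 in each) lower. Of 11 neural genes tested 3 were called in Tip60 KD, all higher, including Tubb3, a neuronal tubulin (1.96, 0.52 and 1.76), and Zic2 (0.53, 0.54 and 0.42), while Sox11 was higher in Hdac6 KD alone of the 3 (0.00, 0.94 and 0.04). These are the genes of smallest adjusted p in each list. Snai1, Col4a2, Tead4 and Sox11 lay at the floor on both control KD arrays and Krt7 at it on all 6 knockdown arrays, so that the size of these changes depends on the floor. Krt7 passed the filter only through control KD, where it was high, so its calls are no separate support for a decrease. Sox11 needed its Hdac6 KD values to pass, so its call there is no separate support either. Not every such value passed the test: Snai1 and Gata1, Col4a2 and Tfap2c were not called in Hdac6 KD, nor Sox11 in Tip60 KD or double KD.

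A few markers of other cells moved with some of these results. Of 8 fibroblast markers 4 were tested, and Col1a1 and Thy1 were higher in Tip60 KD (0.98 and 0.47) and double KD (0.79 and 0.53) but not called in Hdac6 KD. The summed level of the 8 was 2.47 to 2.69 times the 75th percentile signal in control KD, 3.11 to 3.57 in Tip60 KD, 2.55 to 2.63 in Hdac6 KD and 3.25 to 3.52 in double KD. This rise rests mainly on Thy1 and Col1a1. Dcn, Fbn1 and Postn lay at the floor on every array, and Col1a2, Col3a1 and Lum reached at most -2.51, -2.48 and -2.50. Postn was above background on no array. Of the 8 ESC markers 2 were called in Tip60 KD and 2 in Hdac6 KD, all higher, and 4 in double KD, 3 higher and 1 lower. Their shares were 25%, 25% and 50%, beside 39.7%, 28.9% and 32.8% over all genes tested. Pou5f1 was higher in all 3 knockdowns (1.01, 0.47 and 0.63), Zfp42 in Tip60 KD (0.45) and double KD (0.37), and Tdgf1 in Hdac6 KD (0.59) and double KD (0.33). Sox2 was lower in double KD (-0.35, limma adjusted p 0.0712), and Nanog, Klf4, Esrrb and Dppa5a were not called. The part of these markers in the lineage gene results was not tested.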

How the data were processed

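Total RNA of 8 ESC cultures, 4 groups of 2, was amplified, labelled with Cy3 and hybridised to 1-colour Agilent mouse arrays, and spots were read with Agilent Feature Extraction 10.7.1.1. The scanner values that the authors deposited are intensity, as raw mean signal and as processed signal, that is after the scanner software took off a background, with no scaling across arrays. Log2 values make up the series matrix they deposited, and these behaved as quantile-normalised signal without background subtraction. Column medians and ranks show this, and the authors' exact steps are not given in the sources used here.

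Here the processed signal was averaged over the spots of a probe without outlier marks, divided by the array's 75th percentile, raised to a floor of 0.153 (log2 -2.71) and converted to log2. The floor is the highest, over arrays, of the lowest signal called well above background, and 18.8% of the values of the tested lineage genes lay at it. Probes had to exceed both the floor and the background call on 2 or more arrays, and the brightest kept probe stood for a gene. All 18116 genes were fitted with limma 3.58.1 in R 4.3.3 (lmFit and eBayes, 4 groups, 4 residual and 1.84 prior degrees of freedom, 2-sided, Benjamini-Hochberg adjusted p under 0.1). The interaction term subtracts both single changes from that of double KD. Values were given on every array for members called in a knockdown or well above background on all 8 arrays, from further lists at most 3 genes of smallest adjusted p, and other members by range. The number of arrays limits the precision. Replicate letter, slide and scan coincide, and deviations of same-lettered arrays correlated in all 6 pairs of groups (0.651 to 0.799), so a fit with the replicate as a block was added. On simulated data for Tip60 KD (17947 genes) 68 of 100 genes changed by 1 and 91 of 100 changed by 2 (log2) were recovered, with 18 false calls. Probe positions in the files are on mm9, and promoter sequences are from RefSeq on GRCm38.p6. Motifs were searched and figures drawn with Python 3.11.15 and matplotlib 3.10.9. The members, lists and tests were chosen with earlier results of these data known. Alternatives covered background correction, normalisation, floor, filter, probe choice, the arrays fitted and single arrays left out.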

Additional observations from a re-analysis of the deposited data

Results flagged for a closer look

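The change in double KD differed from the sum of the changes in Tip60 KD and Hdac6 KD for 5 of the 18 lineage genes tested, against a background of 22%. Gbx2 had the largest term, -2.02 (SE 0.15, limma adjusted p 0.00744), opposite in sign to its increases of 1.53 and 1.56, and this term held under all 12 settings that gave one and whichever array was left out. The term was -0.88 for Krt8 (limma adjusted p 0.0694), -0.69 for Eomes (adjusted p 0.0916), 0.37 for Krt18 (adjusted p 0.0546) and 0.70 for Krt19 (adjusted p 0.0637). All 5 terms oppose the summed single changes, which share the control arrays with the term, so that this sign is no separate result. The terms of Eomes and Krt18 were lost on leaving out any single array, and those of Krt8 and Krt19 held in 2 of the 8 such fits. For the second Eomes probe the term was -0.30 and not called (limma adjusted p 0.501 in a fit over probes).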

How the results depend on the processing

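With single arrays left out, the lineage genes called ranged from 5 to 6 in Tip60 KD, 2 to 4 in Hdac6 KD (2 without Hdac6 KD array A or B), 4 to 5 in double KD, 0 to 2 in Tip60 KD against Hdac6 KD (0 without Tip60 KD array A or Hdac6 KD array B), 0 to 0 in double KD against Tip60 KD and 1 to 2 for the interaction. The replicate block gave 6 calls in Tip60 KD against Hdac6 KD and 4 in double KD against Tip60 KD. In the series matrix of every gene, chosen after seeing the data, the calls were 3 in Tip60 KD, 1 in Hdac6 KD, 2 in double KD, 0 in Tip60 KD against Hdac6 KD and 1 for the interaction, and with the filter kept 1 and 2 for the last pair. Quantile normalisation gave 3 in double KD, 0 in Tip60 KD against Hdac6 KD and 2 for the interaction. Missing values in place of the floor gave 3 in double KD, and no filter gave 2 for the interaction. In Tip60 KD against Hdac6 KD the same background on every array gave 4 and a fit of only the arrays compared 1. In double KD against Tip60 KD, keeping only genes above background on all 8 arrays, averaging the probes of a gene and a fit over probes gave 1 each. The interaction of Sox3 (0.06) reversed to -0.64 with normexp. Causes of these shifts were not tested. Dim signal left 17 of the 35 genes untested.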
